A study of Danio rerio with 6 samples.

Results

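Long noncoding RNA (lncRNA) genes of larval zebrafish are described here in tails of sirt6 mutant and wild-type (WT) larvae. The members are the gene models that the deposited table types as lincRNA, lncRNA or antisense and does not place on an alternate contig, and they number 2165 of 38157 genes listed. Of these, 1493 were typed lincRNA, for long intergenic noncoding RNA, 672 were typed antisense, and the type lncRNA itself did not occur. The study asked how sirt6 deficiency affects gene expression, and sirt6 encodes a NAD-dependent deacylase of the sirtuin family. The tested group was 3 libraries from larvae of a sirt6 mutant line made with CRISPR/Cas9, and the other was 3 libraries from WT larvae, all from tails with blood-forming tissue at 3 days post fertilisation and all from poly-A selected RNA. The sources used here do not give the lesion, the zygosity, the strain or the number of larvae per library.

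A lncRNA is a transcript without a long conserved reading frame that is mostly made by RNA polymerase II, and many are spliced and polyadenylated like messenger RNA. Some stay in the nucleus and act on splicing or chromatin, some act on the gene next to their own site of transcription, and some bind microRNAs or proteins in the cytoplasm. They are as a class known for lower levels and more tissue-restricted expression than messenger RNAs. In zebrafish many lie beside genes of developmental regulators, and few have been studied singly. Of the 2165 members, 1489 were found in a table of current gene names, which named the model CR383676.2 malat1. For most members it gave another clone name, so the deposited table's own names are used here, except for malat1, linc.sox4a, lnc.veal2 and linc.thor.

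Levels are in FPKM, fragments scaled to gene length and to library size, and reads were recovered from them. Reads in genes ranged from 12788974 to 14314865 in mutant libraries and from 12438359 to 14655293 in WT libraries. The libraries did not group by genotype alone. Mutant libraries 1 and 3 had a Pearson r of 0.938 across the 411 members that averaged 0.5 FPKM or more and WT libraries 2 and 3 had 0.926, while the other 13 pairs lay between 0.863 and 0.913, where genes are not independent replicates. The level of sirt6 was 3.32 ± 0.251 FPKM in mutants and 3.85 ± 1.78 FPKM in WT (SD, n = 3 each, exact two-sided permutation p = 0.9, where 0.1 is the smallest possible), and with the lesion unknown this does not check the labels. The labelled tissue was set against marker lists of 3 to 9 genes. All 7 markers of tail bud, fin and notochord were present, and so were genes of retina, lens, brain, liver and exocrine pancreas, organs that lie outside the tail, while the blood marker alas2 was listed at 0 throughout. The skeletal muscle marker mylpfa, the neutrophil marker lyz and the macrophage marker mpeg1.1 were under 0.5 FPKM. Muscle and blood lists of 5 genes each were high as sums all the same. Summed skeletal muscle markers reached 6288 to 8243 FPKM in mutants and 5682 to 9575 FPKM in WT. Summed blood markers reached 770 to 1143 FPKM in mutants and 613 to 1108 FPKM in WT. Summed retina markers reached 1192 to 1420 FPKM in mutants against 716 to 992 FPKM in WT, with 7 of 9 genes higher in mutants. Summed neutrophil markers reached 52.8 to 60.4 FPKM in mutants against 28.8 to 32.1 FPKM in WT, with 3 of 4 genes higher. For macrophage markers these sums were 1.64 to 2.39 FPKM in mutants against 2.76 to 4.44 FPKM in WT, with 0 of 3 genes higher. The groups did not overlap for the retina, neutrophil and macrophage lists, and their part in the lncRNA values was not tested.

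Most lncRNA genes were at or near 0 in these libraries. No read was listed for 753 members, or 34.8%, against 8.33% of the 25432 protein-coding genes. A mean of at least 0.5 FPKM was reached by 411 members, or 19%, against 71.3% of protein-coding genes. A mean of at least 10 FPKM was reached by 30 members, or 1.39%, against 20.4%. Among genes that reached 0.5 FPKM, the median level was 1.55 FPKM for lncRNA and 4.86 FPKM for protein-coding genes. Within each library the lncRNA median lay below the protein-coding median, by 1.27 to 1.50 on the log2(FPKM + 0.5) scale. The mean difference of medians was -1.42 (SD 0.0845, n = 6 libraries, exact two-sided sign-flip permutation p = 0.031, the smallest that 6 libraries can give). Its size depends on the filter, with -2.47 over genes with any read and -0.44 over genes of at least 5 FPKM. Each library measures the same genes, so the permutation p describes how alike the libraries are, not the spread between genes. The shares and medians are those of gene models as annotated, and poly-A selection leaves out transcripts without a tail.

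**Figure D1:**
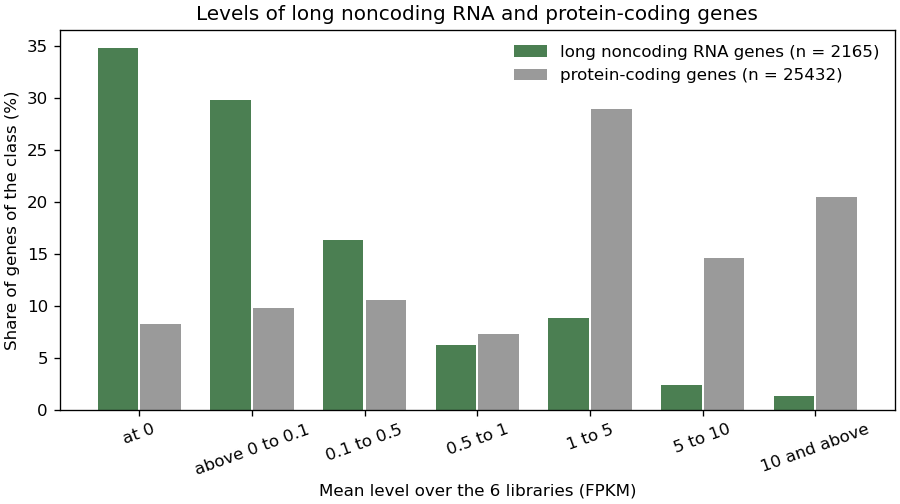
Share of genes of each class (y axis, percent) by mean level over the 6 libraries (x axis, FPKM), with lncRNA genes in green and protein-coding genes in grey. The bars at 0 are 34.8% for lncRNA and 8.33% for protein-coding genes, and those at 10 FPKM and above are 1.39% and 20.4%.

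The lower level was seen at each gene length examined. LncRNA models were shorter, with a median length of 873 bases against 2163 bases for protein-coding genes. Under 1000 bases, 13.9% of lncRNA genes and 49.0% of protein-coding genes reached a mean of 0.5 FPKM, with medians of 1.61 and 4.78 FPKM among those that did. From 2000 bases upward the shares were 34.2% and 79.6%, and the medians 1.54 and 4.86 FPKM. Tested members had a median of 28.2 reads per library, against 175 for tested protein-coding genes. The spread between libraries of a genotype was wider for lncRNA genes also within the same broad ranges of level. Gene length and reads were not matched within these ranges. From 1 to 5 FPKM the median within-genotype SD was 0.40 on the log2 scale for 192 members and 0.26 for 7357 protein-coding genes, and from 5 FPKM upward it was 0.31 for 83 members and 0.21 for 8910 protein-coding genes.

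LncRNA genes made up a small part of the RNA measured. Among genes of at least 0.5 FPKM, they held 0.352%, 0.334% and 0.356% of recovered reads in mutant libraries 1, 2 and 3, against 0.337%, 0.396% and 0.413% in WT libraries 1, 2 and 3. WT libraries 2 and 3 were the high ones, and WT library 1 lay within the mutant range. The difference of means, -0.035 percentage points, was within the spread between libraries (exact two-sided permutation p = 0.3). In bulk tissue, fewer cells of a type and less RNA per cell cannot be told apart. Of all reads in members, malat1 alone held 18.5% to 20.3% in mutants and 20.1% to 24.2% in WT. In each library, 240 to 273 members in mutants and 270 to 292 in WT stood at 1 FPKM or more (exact two-sided permutation p = 0.2).

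The share of members that reached a mean of 0.5 FPKM differed with their position. By gene spans, 745 members overlapped a protein-coding gene by at least 1 base, 642 of them on the opposite strand only. A further 451 lay within 5 kb of one, 962 lay farther away, and 7 stood on a scaffold with no protein-coding gene. A mean of 0.5 FPKM was reached by 28.6% of those within 5 kb, 18.0% of those farther away and 14.0% of those that overlapped, and by 5 of the 7 on scaffolds with no protein-coding gene. How reads were assigned where genes overlap is not stated, and its part in these shares was not tested. Models of 1 exon, in which gene length equals gene span, were few but often read. They numbered 79, and 42 of them, or 53.2%, reached 0.5 FPKM, against 17.7% of members with more exons, with a median of 3.36 against 1.43 FPKM among those that did. Among protein-coding genes the order was the other way, with 35.1% of 1-exon models and 72.9% of the others. Among the 12 members of highest level, malat1, CR753876.1, CR376766.2, CU856520.1 and BX548046.2, were models of 1 exon.

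The gene malat1 was the lncRNA of highest level. In mammals this nuclear RNA collects at sites rich in splicing factors and ends without a usual poly-A tail, in an A-rich stretch encoded in the genome. Its model here is a single exon of 7477 bases (GRCz11 chromosome 14, 45631236 to 45638712), and it ranked 489 among all genes listed. It stood at 95.5, 91.9 and 86.6 FPKM in mutant libraries 1, 2 and 3, against 119, 108 and 116 FPKM in WT libraries 1, 2 and 3. The 3 mutant libraries lay below the 3 WT libraries without overlap. Its log2 fold change of -0.32 had an SE of 0.12 (limma adjusted p = 0.838), with 9365 to 12441 reads per library, so malat1 did not pass the test over all genes.

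The gene oip5-as1, known as cyrano, is conserved between fish and mammals, where it is known for a nearly perfect site for a microRNA whose level it lowers. Its model (chromosome 13, 33261131 to 33301170) stood at 32.7, 36.2 and 33.4 FPKM in mutants, against 26.2, 51.7 and 51.8 FPKM in WT. WT library 1 was the lowest of the 6 and WT libraries 2 and 3 the highest, so the groups overlapped (log2 fold change -0.27, SE 0.26, limma adjusted p = 0.930). Its span overlaps tmem39b on the opposite strand, and the deposited description gives it a protein family match, "Putative transmembrane protein". The counting is not stated to use strand, so whether oip5-as1 and tmem39b shared reads where they overlap is not known.

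The other members among the 12 of highest level have no function known here. CU693494.2 (chromosome 2, 342478 to 344595) stood at 72.0, 105 and 63.1 FPKM in mutants, against 111, 93.9 and 89.4 FPKM in WT, and the groups overlapped. CR753876.1 (chromosome 19, 35368602 to 35369837), whose description names an endogenous retrovirus envelope protein, stood at 57.7, 81.6 and 58.5 FPKM in mutants, against 82.8, 87.1 and 96.5 FPKM in WT. Its mutant libraries lay below the WT ones, mutant library 2 only just (log2 fold change -0.44, SE 0.17, limma adjusted p = 0.838), and reads from near-identical copies of such an element are uncertain where the counting could split them. The member BX322618.1 (chromosome 20, 12203762 to 12208117), with its nearest protein-coding gene 357980 bases away, was the highest one with mutants above WT, at 59.2, 67.8 and 53.2 FPKM in mutants against 50.4, 48.3 and 52.1 FPKM in WT (log2 fold change 0.25, SE 0.14, limma adjusted p = 0.902). BX000438.2, on the opposite strand of the neurofibromin gene nf1a, stood at 17.5, 19.2 and 14.8 FPKM in mutants, against 18.9, 27.7 and 28.2 FPKM in WT, where WT library 1 lay among the mutants. By the size of the log2 fold change, CABZ01070747.1 differed least of the 12 (0.067), at 22.3 ± 2.33 FPKM in mutants and 21.2 ± 0.858 FPKM in WT (SD, n = 3 each). BX936337.1 was close to it (-0.076), at 56.9 ± 12.7 FPKM in mutants and 59.2 ± 3.46 FPKM in WT (SD, n = 3 each). The span of BX936337.1 overlaps the protein-coding gene si:dkey-100n23.3 on the same strand, so how reads were shared with that gene is uncertain.

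**Figure D2:**
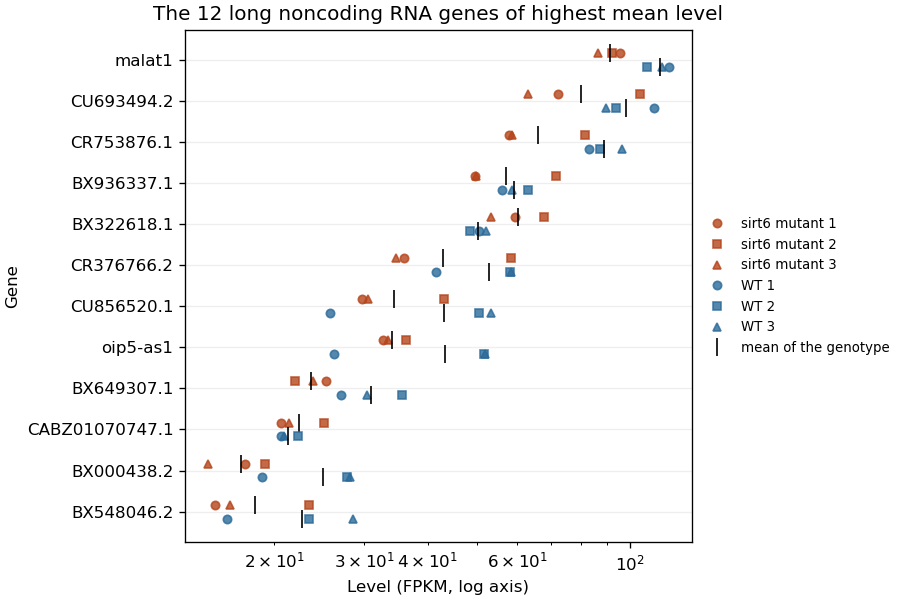
Level in each library (x axis, FPKM on a log scale) of the 12 lncRNA genes of highest mean level, with mutant libraries in red above WT libraries in blue and a black tick at each genotype's mean. Mutant and WT libraries do not overlap for malat1, CR753876.1, BX649307.1 and BX322618.1, and for CR376766.2, CU856520.1, oip5-as1, BX000438.2 and BX548046.2 WT library 1 lies far below WT libraries 2 and 3.

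In their medians, members of higher level, and 1-exon models most of all, split the libraries across genotypes. The 1-exon models malat1 and CR753876.1 did not follow this split, as their mutant libraries lay below the WT ones. CU856520.1 (chromosome 13, 4712421 to 4714106) stood at 29.7, 43.1 and 30.5 FPKM in mutant libraries 1, 2 and 3, against 25.8, 50.5 and 53.2 FPKM in WT libraries 1, 2 and 3. CR376766.2 (chromosome 13, 2352289 to 2352995) stood at 35.9, 58.2 and 34.6 FPKM in mutants, against 41.5, 58.0 and 58.4 FPKM in WT. In both, mutant library 2 and WT libraries 2 and 3 were high and the other 3 libraries low. Over the 42 tested 1-exon members, the median deviation from the mean of the 6 libraries on the log2 scale was -0.22, 0.17 and -0.18 in mutant libraries 1, 2 and 3, against -0.29, 0.26 and 0.30 in WT libraries 1, 2 and 3. In mutant libraries 1, 2 and 3, 12, 31 and 10 of the 42 lay above their own mean, against 11, 34 and 35 in WT libraries 1, 2 and 3. The 381 tested 1-exon protein-coding genes had median deviations of 0.01, 0.10 and 0.00 in mutants, against -0.01, -0.03 and -0.03 in WT, so of the high libraries of the lncRNA models only mutant library 2 was high among them. The 369 tested members with more exons had deviations between -0.06 and 0.07. Among the 83 members of at least 5 FPKM, the same 3 libraries were high for both kinds. Their 17 models of 1 exon had median deviations of -0.28, 0.30 and -0.28 in mutants, against -0.49, 0.30 and 0.32 in WT, and the 66 with more exons had -0.09, 0.10 and -0.07 in mutants, against -0.03, 0.06 and 0.03 in WT. The difference between the kinds was not tested. The 8910 protein-coding genes of at least 5 FPKM had -0.022, 0.078 and -0.032 in mutants, against 0.042, -0.015 and -0.03 in WT. Mutant library 2 was thus high among them too, while WT libraries 2 and 3 were not. What these libraries share is not given in the labels.

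**Figure D3:**
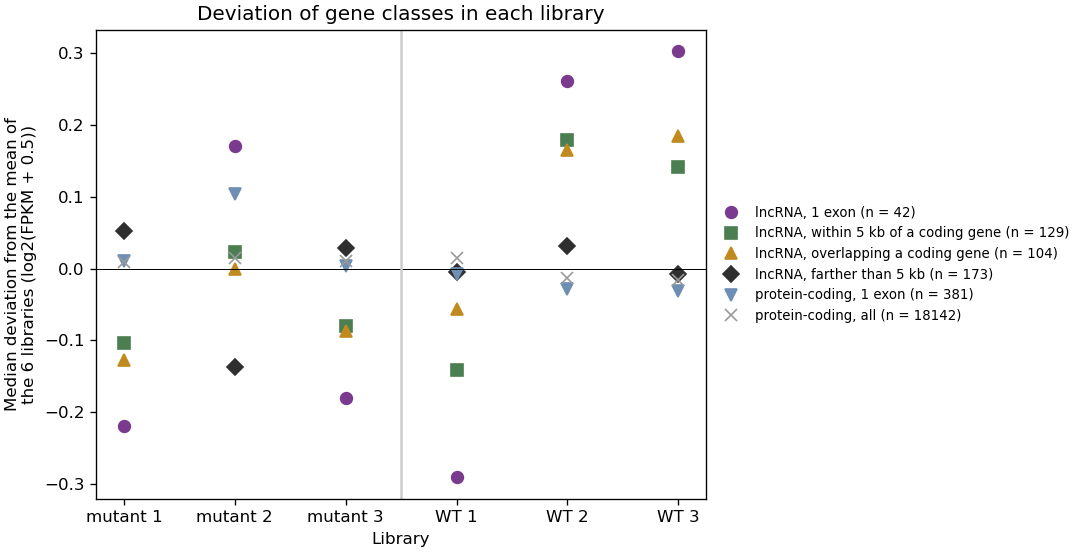
Median deviation from the mean of the 6 libraries (y axis, log2(FPKM + 0.5)) of gene classes in each library (x axis), mutants on the left. The 1-exon lncRNA genes lie at 0.17 to 0.30 in mutant library 2 and WT libraries 2 and 3 and at -0.29 to -0.18 in the other 3, while all protein-coding genes stay within 0.02 of 0.

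Most members with a lncRNA name in either table stood at low levels. The rule for described lncRNAs took 33 members, of which 8 had no read, 12 had a mean under 0.5 FPKM and 13 were tested, with 4 higher and 9 lower in mutants by their means and 0 passing limma. Not tested were linc.thor, known in zebrafish and mammals from the germ line, with 8 reads over the 6 libraries, lnc.veal2, known from zebrafish vessels, with 12 reads, and linc.sox4a, whose span overlaps that of sox4a, with 57 reads. None of these averaged 0.5 FPKM, the level required for the test. The tested member linc.alien, known from cardiovascular progenitors, lies 1864 bases from foxa2, a transcription factor gene of endoderm and floor plate. It stood at 1.05, 0.409 and 0.847 FPKM in mutants, against 0.697, 2.32 and 0.327 FPKM in WT, and WT library 2 held 23 of its reads where no other held more than 10. Its WT mean rests on that library, and the log2 fold change of -0.19 turned to 0.31 without it.

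Other named lncRNAs lie beside developmental regulators. The member CR751602.1, currently named with the prefix linc, 1618 bases from the nuclear receptor gene nr2f1a, stood at 2.05, 2.83 and 3.16 FPKM in mutants, against 2.97, 3.91 and 3.50 FPKM in WT. The member BX005254.2, of the same naming, 1059 bases from hoxc3a, a gene of body axis patterning, stood at 1.80, 2.78 and 2.09 FPKM in mutants, against 2.21, 3.18 and 2.11 FPKM in WT. The groups overlapped for both (limma adjusted p = 0.919 and 0.963). The antisense model birc6-as2, on the opposite strand of the apoptosis inhibitor gene birc6, stood at 1.02, 1.52 and 1.02 FPKM in mutants, against 0.967, 0.864 and 0.871 FPKM in WT. Its mutant libraries lay above WT without overlap (log2 fold change 0.25, SE 0.21, limma adjusted p = 0.930), with 14 to 26 reads per library. The antisense model BX569787.1, picked with its values in view, overlaps the nuclear receptor gene nr2f2 on the opposite strand and stood at 0.979, 0.941 and 1.1 FPKM in mutants, against 1.69, 1.48 and 1.29 FPKM in WT. The 3 mutant libraries lay below WT (log2 fold change -0.40, limma adjusted p = 0.892), while nr2f2 itself stood at 31.6, 33.3 and 33.6 FPKM in mutants against 28.1, 37.7 and 37.8 FPKM in WT, with overlap.

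Between genotypes, no lncRNA gene passed the test. Limma, fitted to all 23855 genes that averaged 0.5 FPKM or more and adjusted over them by the Benjamini-Hochberg method with a threshold of 0.05, called 0 of the 411 members tested, and over all genes it called 0.0%. The smallest adjusted p of a member was 0.412. At an unadjusted p under 0.05 there were 27 members, or 6.57% against 5.73% of all genes, 7 higher and 20 lower in mutants. Limma voom on recovered reads called 0 and gave 19 at that level, or 4.62% against 5.23%. The 7 and 20 are 1.70% and 4.87% of members tested, against 2.45% and 3.28% of all genes tested. Mutant and WT libraries were apart for 14 members with mutants higher, or 3.41% against 5.16% of all genes, and for 27 with mutants lower, or 6.57% against 5.4%. In all, 9.98% of members and 10.6% of all genes tested did not overlap.

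By their means, 246 of 411 tested members, or 59.9%, were lower in mutants, against 50.0% of all genes tested. The median log2 fold change was -0.08 for lncRNA, 0.00 for all genes and 0.01 for protein-coding genes. The lncRNA median deviation was -0.06, -0.03 and -0.02 in mutant libraries 1, 2 and 3, against -0.04, 0.10 and 0.08 in WT libraries 1, 2 and 3. WT library 1 lay among the mutants, and WT libraries 2 and 3, the close pair, lay above them. Of antisense members 66 of 94 had lower means in mutants, with a median log2 fold change of -0.16. For lincRNA genes farther than 5 kb from a protein-coding gene 83 of 169 had lower means in mutants, with a median of 0.01, and for those within 5 kb 84 of 127 had, with a median of -0.12. Median deviations of lincRNA genes within 5 kb were -0.11, 0.02 and -0.04 in mutants, against -0.15, 0.19 and 0.14 in WT. Antisense members had -0.112, -0.001 and -0.12 in mutants, against -0.008, 0.138 and 0.197 in WT. Among lincRNA genes within 5 kb, WT library 1 lay below mutant library 2. Among antisense members those libraries were nearly level, and above mutant libraries 1 and 3. The median was 0.00 for the 127 members with a protein match in their description and -0.10 for the 284 without.

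Without WT library 1 and mutant library 2, 16 members passed limma as higher and 59 as lower, or 3.89% and 14.4% of members tested, against 9.15% and 9.42% of all genes. With library quality weights 27 passed as higher and 72 as lower, or 6.57% and 17.5%, against 9.62% and 10.7%. The members that passed in both fits numbered 63, which is 84.0% of the first set and 63.6% of the second. The first fit keeps only the close pairs. The other gives the left-out libraries the lowest weights, 0.223 for WT library 1 and 0.263 for mutant library 2. Neither fit can therefore separate genotype from pair. Of the 75 members of the first fit, 18 were models of 1 exon, all of them lower, where such models were 42 of the 411 members tested. In the libraries kept, median deviations of tested 1-exon members were -0.22 and -0.18 in mutants and 0.26 and 0.30 in WT. With all 6 libraries, 30 of the 42 tested 1-exon members had lower means in mutants and 12 had higher ones. For the direction of the 18, genotype and the choice of libraries cannot be told apart.

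**Figure D4:**
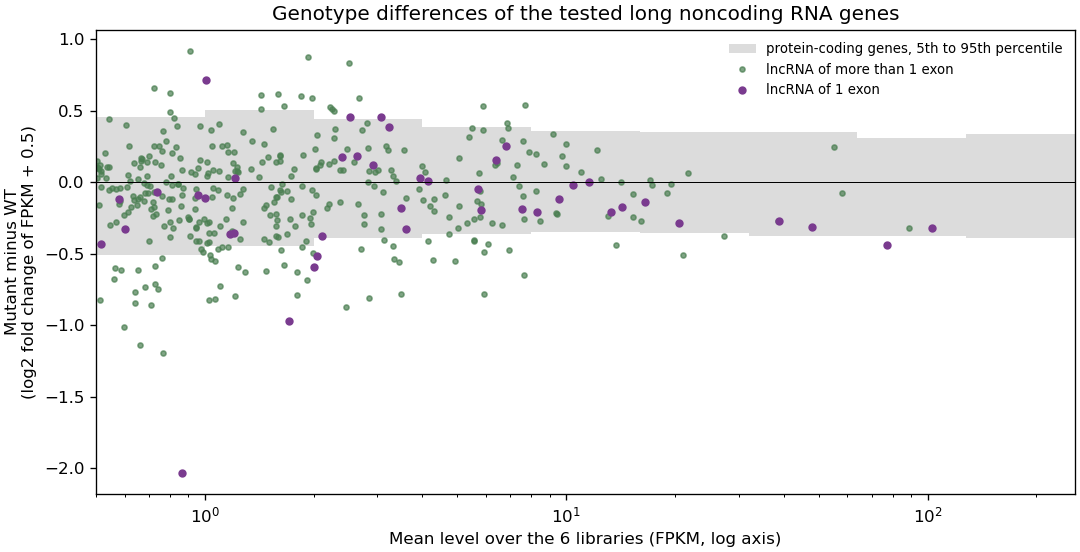
Mutant minus WT difference (y axis, log2 fold change of FPKM + 0.5) of the 411 tested lncRNA genes against mean level (x axis, FPKM on a log scale), with 1-exon models in purple, and in grey the 5th to 95th percentile of protein-coding genes per level bin. None of the points passed limma, 246 lie below 0, and the lowest point, at -2.03, is mir214a with 7 reads in all.

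The 10 members named for lying lower in mutants had the smallest p values among those averaging 1 FPKM or more whose genotypes did not overlap. First among them were the lincRNA CR589876.1 and the antisense models CT954240.1 and BX248082.2. CR589876.1 (chromosome 23, 7171653 to 7217479), 46159 bases from its nearest protein-coding gene, slco4a1, stood at 3.65, 4.96 and 4.08 FPKM in mutants, against 9.06, 6.95 and 6.86 FPKM in WT. The groups were well apart (log2 fold change -0.78, SE 0.18, limma adjusted p = 0.621), with 41 to 57 reads in mutants and 74 to 107 in WT. BX248082.2 (chromosome 16, 16055484 to 16059808), on the opposite strand of ankib1b and with a retroviral envelope match like CR753876.1, stood at 3.73, 4.32 and 3.65 FPKM in mutants, against 6.35, 5.49 and 5.97 FPKM in WT. It did not overlap between groups (log2 fold change -0.55, SE 0.15, limma adjusted p = 0.738), while ankib1b did, at 9.19, 7.03 and 8.99 FPKM in mutants against 7.88, 8.06 and 8.17 FPKM in WT. CT954240.1, on the opposite strand of the prepronociceptin gene pnoca, stood at 0.589, 0.958 and 0.705 FPKM in mutants, against 1.68, 1.89 and 1.43 FPKM in WT. That is 3 to 5 reads per mutant library against 7 to 10 per WT library, while pnoca stood at 3.14, 3.77 and 2.96 FPKM in mutants against 3.82, 3.67 and 2.73 FPKM in WT, with overlap.

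CU638870.1 (chromosome 16, 14416346 to 14417402) lies 19343 bases from crabp2a, which encodes a cellular retinoic acid binding protein. It stood at 2.24, 3.36 and 2.52 FPKM in mutants, against 4.64, 4.08 and 3.83 FPKM in WT, without overlap (log2 fold change -0.56, SE 0.18, limma adjusted p = 0.775). The neighbour crabp2a was lower by its mean too, at 18.1, 19.8 and 16.7 FPKM in mutants against 18.7, 29.3 and 27.9 FPKM in WT, where WT library 1 lay among the mutants. CABZ01086029.1, at 2.54, 4.23 and 3.48 FPKM in mutants against 5.14, 4.74 and 5.53 FPKM in WT, and BX649307.1, at 25.3, 21.9 and 23.8 FPKM against 27.1, 35.6 and 30.4 FPKM, also did not overlap. Both missed the threshold (limma adjusted p = 0.825 and 0.838). BX649307.1 overlaps the zinc finger gene znf1107 on the same strand, so how its reads were shared with that gene is uncertain. CU468730.1, with 4 to 9 reads per library, and BX899181.1, with 2 to 10, complete the 10 named with mutants lower.

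The 10 members named for lying higher in mutants were chosen by the same rule, among those averaging 1 FPKM or more without overlap. Most were lincRNAs, as were 317 of the 411 members tested. AL928657.1 (chromosome 3, 40397862 to 40405153), 2199 bases from tnrc18, stood at 1.82, 1.98 and 1.70 FPKM in mutants, against 0.932, 1.15 and 1.02 FPKM in WT. The groups were apart (log2 fold change 0.61, SE 0.18, limma adjusted p = 0.775), with 26 to 29 reads per mutant library and 14 to 17 per WT library, while tnrc18 overlapped, at 9.07, 6.36 and 9.06 FPKM in mutants against 6.59, 7.46 and 7.94 FPKM in WT. CABZ01085662.1 (chromosome 10, 44242236 to 44253104) stood at 9.41, 9.74 and 8.40 FPKM in mutants, against 7.35, 6.28 and 5.04 FPKM in WT (log2 fold change 0.54, SE 0.17, limma adjusted p = 0.775). Its description names a match to an unconventional myosin. FP017151.1 (chromosome 8, 412312 to 414595), on the opposite strand of pggt1b, which encodes a prenyltransferase subunit, stood at 3.90, 3.17 and 2.80 FPKM in mutants, against 2.60, 1.75 and 1.76 FPKM in WT (log2 fold change 0.59, SE 0.21, limma adjusted p = 0.808). The gene pggt1b stood at 14.7, 16.4 and 16.7 FPKM in mutants against 17.5, 11.2 and 10.6 FPKM in WT, where WT library 1 was the highest of the 6. Strand use in the counting is not stated, so whether the pair shared reads is not known.

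BX005183.3 (chromosome 3, 42212710 to 42216013), 83645 bases from its nearest protein-coding gene, stood at 9.64, 10.1 and 11.3 FPKM in mutants, against 8.49, 8.50 and 7.31 FPKM in WT (log2 fold change 0.33, SE 0.14, limma adjusted p = 0.867). The mutants were above WT by a small margin. FQ323163.1 stood at 5.51, 6.38 and 6.79 FPKM in mutants against 3.65, 5.06 and 5.46 FPKM in WT, and CU929359.2 at 2.09, 1.97 and 1.88 FPKM in mutants against 1.62, 0.522 and 1.45 FPKM in WT, the low value resting on 7 reads of WT library 2. CABZ01044154.1, CABZ01083943.1 and BX548073.11 were the others, with log2 fold changes of 0.37, 0.21 and 0.26 and limma adjusted p from 0.913 to 0.924. Of these, CABZ01083943.1 has a protein match in its description and is now named kif1ca.

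**Figure D5:**
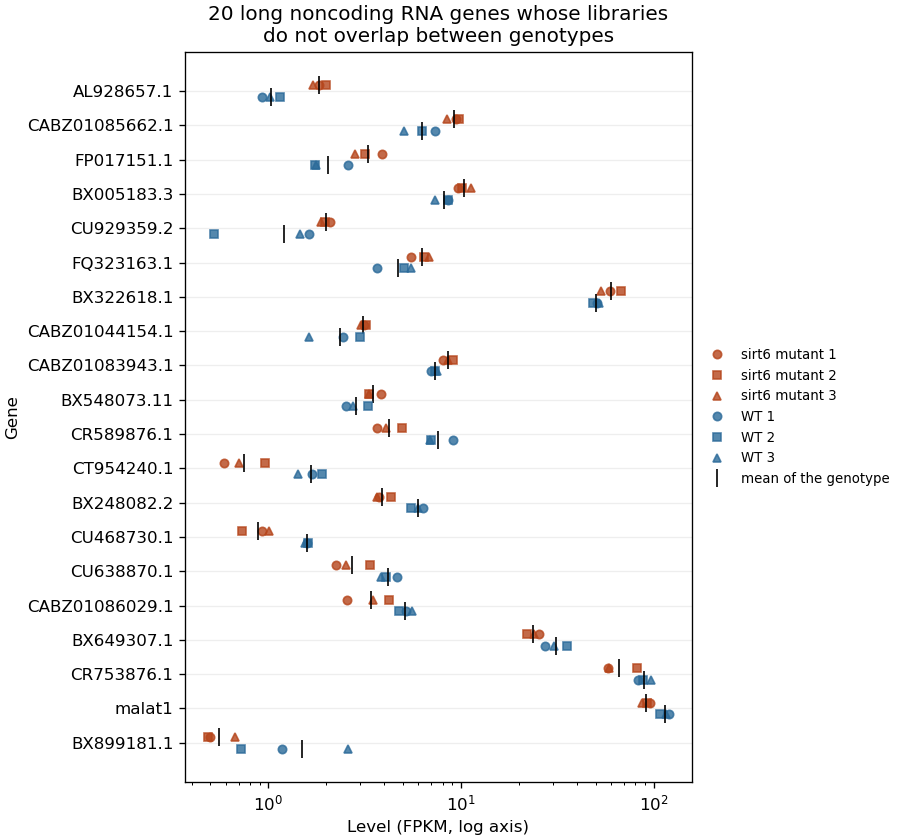
Level in each library (x axis, FPKM on a log scale) of the 20 named lncRNA genes whose genotypes do not overlap, with mutant libraries in red above WT libraries in blue. The upper 10 genes have mutants higher and the lower 10 have mutants lower. They were chosen for this separation, and limma passed 0 of them.

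Genotype differences of lncRNA genes were set beside those of their nearest protein-coding genes. For 85 pairs of a tested member and a tested protein-coding gene overlapping on the opposite strand, the Pearson r of their log2 fold changes was 0.00 across pairs. It was 0.23 for 115 pairs within 5 kb, 0.16 for 145 pairs farther apart and -0.66 for the 9 pairs overlapping on the same strand. Signs were the same in 49.4% of opposite-strand, 53.9% of nearby, 62.1% of farther and 44.4% of same-strand pairs. Pairs share libraries and are not independent, so these values describe these libraries. Overlap here is of gene spans, and strand use in the counting is not stated. Whether overlapping pairs shared reads is therefore not known. The member was the one of higher level in 14 of the 85 overlapping pairs, and the medians were 1.08 FPKM for the members and 6.55 FPKM for the genes opposite them.

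Some members carry names of protein-coding genes. Of the 2165, 480 had a protein match in their description, and 32 had a current symbol that RefSeq types as protein-coding, against 80 that it types as lncRNA. Among the tested ones are CABZ01088109.1, now named scaf8, which encodes a protein that binds RNA polymerase II, and CU681842.1, now named tob2, an antiproliferative gene. CABZ01088109.1 stood at 13.9, 11.6 and 14.0 FPKM in mutants, against 11.9, 10.9 and 10.7 FPKM in WT, and CU681842.1 at 11.9, 7.87 and 13.4 FPKM in mutants, against 8.92, 8.47 and 9.30 FPKM in WT. The groups overlapped for both, mutant library 2 being the lowest mutant library in each, and both were picked with their values in view. The model mir214a, of 100 bases on the opposite strand of dnm3a, is a microRNA precursor typed antisense, and had the smallest p of the members. It had 0 reads in each mutant library, against 1, 4 and 2 in WT libraries 1, 2 and 3, too few for a fold.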

How the data were processed

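Poly-A selected RNA of 6 libraries was sequenced, 3 from sirt6 mutant and 3 from WT tails. The submitters' processing notes name GRCz11, HISAT2 2.0.5, featureCounts, FastQC and DESeq2. The sources used here give no annotation release, strand setting or filter. The authors deposited FPKM values, gene lengths and positions per gene. Reads were recovered by multiplying FPKM by gene length and dividing by the worth of 1 read in that library, and 100% of values above 0 came out whole within 1e-06.

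Limma 3.58.1 in R 4.3.3 was fitted to log2(FPKM + 0.5) with a variance trend, two-sided, over 23855 genes averaging 0.5 FPKM or more. Log2 fold changes are mutant minus WT on this scale, which understates changes of low genes. Single values per library were compared by exact permutation. The fit was tested on simulated data. Named were the 12 members of highest mean, 10 per direction of smallest p among those averaging 1 FPKM or more whose genotypes did not overlap, and members with described lncRNA names. Members, lists and rules were chosen with earlier results of these data known. The labels do not say that replicates came from separate pools, so p-values measure the spread between samples, which may be technical.

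Alternatives changed the pseudocount, filter, scaling and variance model, used limma voom, library weights or a replicate block, left out libraries, or kept subsets of members.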

Additional observations from a re-analysis of the deposited data

How the results depend on the processing

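The count of lncRNA genes called was 0 in limma with all 6 libraries and in the alternatives on pseudocount, filter, scaling, variance trend, voom, replicate block (0 called, 37 at an unadjusted p under 0.05) and each library left out (0 to 0), and rose to 75 without WT library 1 and mutant library 2 and to 99 with library quality weights. In the labels, only the replicate number links a mutant sample to a WT one. Deviations of same-numbered libraries correlated by 0.053, 0.012 and 0.106, and these values cannot show whether the samples were paired. The block added no call in limma, with 37 members at an unadjusted p under 0.05 against 27 without it. The share of all genes at that level with the block was not taken. The rise can therefore not be read as particular to lncRNA genes. The median log2 fold change of tested lncRNA genes stayed below 0, from -0.13 with weights to -0.03 with no filter. The lncRNA share of summed FPKM differed by -0.021 percentage points and ranged from -0.058 to 0.00094 with 1 library left out, turning sign without WT library 3, and the share of reads ranged from -0.057 to -0.019. The level difference to protein-coding genes was -1.45 to -1.40 with 1 library left out and -1.41 without WT library 1 and mutant library 2, where fewer libraries cannot give a permutation p under 0.0625 and 0.125. Of 641 alternative fits of 39 named genes, 37 passed the threshold and 20 turned sign, all of uncalled values. Those that passed were 17 without WT library 1 and mutant library 2 and 20 with library quality weights. Neither setting can separate genotype from pair. In these settings 9.15% and 9.62% of all genes passed as higher, and 9.42% and 10.7% as lower. Without WT library 1 and mutant library 2 and with weights, the turned values were -0.035 and -0.040 for CABZ01070747.1, -0.34 and -0.32 for CU468915.1 and 0.39 and 0.22 for CABZ01087564.1. With 1 library left out, the range was -0.25 to 0.014 for BX936337.1, with 0.0097 without mutant library 3, -0.015 to 0.12 for CABZ01070747.1, -0.28 to 0.019 for BX005254.2, -0.16 to 0.20 for CU468915.1, with -0.14 without WT library 1, -0.20 to 0.11 for CU138533.1, with 0.020 and 0.038 without WT libraries 2 and 3, -0.57 to 0.31 for linc.alien, with 0.036 without mutant library 2, and -0.24 to 0.20 for CABZ01087564.1, with 0.16 and 0.0085 without WT libraries 1 and 2. The cause was not tested. Planned tests with count models were not run, and limma voom on recovered reads was run instead. Subsets of members without a protein match or with more than 1 exon were chosen after seeing the data. Members with under 10 reads per library have wide counting error.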
